A study of Danio rerio with 12 samples.

Results

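*tsc22d3*, *fkbp5*, *glcci1a* and *nr3c1* are genes of the glucocorticoid response, and their transcripts were measured in the brains of zebrafish carrying a premature stop codon in *psen2*. The 4 genes were taken by identifier from the 32057 genes of the count table, and all 4 were found on the named chromosome and passed the filter on low counts. They were chosen because of how they differed between mutant and wild type brains. Their mutant and wild type values are therefore given as a description without a test, while comparisons that the choice did not use are tested. Other listed genes are also tested between mutant and wild type, but their lists were chosen with earlier results of these data known.

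Total RNA from the entire brains of 12 female fish aged 6 months was depleted of rRNA and sequenced, with 1 library per fish. There were 4 fish of each genotype. The wild type (WT) had 2 intact alleles (+/+). Het fish carried the mutant allele on 1 chromosome (*psen2*S4Ter/+), and Hom fish carried it on both (*psen2*S4Ter/S4Ter). The fish were F3 siblings from the inbreeding of a single heterozygous pair and were raised together in one tank, and none received a drug or other treatment according to the labels. The S4Ter allele is a small CRISPR-Cas9 deletion that shifts the reading frame just after the nominal start codon. It descends from a single founder line, and downstream start codons may still be used, so that complete loss of the protein is not assured. The question for these genes was how far their levels moved with the allele, with its dose, and with each other from fish to fish.

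Cortisol, the main glucocorticoid of fish, is released under the control of the hypothalamus and the pituitary and acts through the glucocorticoid receptor encoded by *nr3c1*. Without hormone the receptor is held in the cytoplasm by heat shock proteins and co-chaperones. With hormone it enters the nucleus and recruits coregulators at its target genes. *fkbp5* encodes such a co-chaperone, which lowers the receptor's affinity for hormone and is itself induced by the receptor, and its transcript is widely used as a readout of glucocorticoid exposure in vertebrate brain. *tsc22d3* encodes GILZ, a glucocorticoid-induced leucine zipper protein known in mammals for its anti-inflammatory role. *glcci1a* is a zebrafish copy of the gene for glucocorticoid-induced transcript 1, named in mammals from cells treated with a glucocorticoid.

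The fish had between 11878943 and 17026801 counts. CPM is the count relative to the size of the library. Relative to all counts and before scaling, 3 counts, taken as the floor, corresponded to between 0.176 and 0.253 CPM. The CPM values of genes were instead relative to the counts of the tested genes (9598824 to 13045693 per fish), scaled by TMM normalisation. On that scale 3 counts stand higher than the range given. The normalisation factors lay between 0.84 and 1.04, the lowest in Het fish 84. The share of counts on the mitochondrial rRNA genes was 17.9% to 26.4% in WT and 31.3% to 35.5% in the mutants, so it moved with the allele without overlap, and its part in the differences between mutant and WT was not tested. Levels of *psen2* (ENSDARG00000015540, chromosome 1) lay between 17.8 and 22.6 CPM in WT, between 16.9 and 22.3 CPM in Het, and between 16.5 and 21.0 CPM in Hom. Because the table adds both alleles, this does not check the genotype labels. In whole brains, fewer cells of a type and less RNA per cell cannot be told apart.

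**Figure D1:**
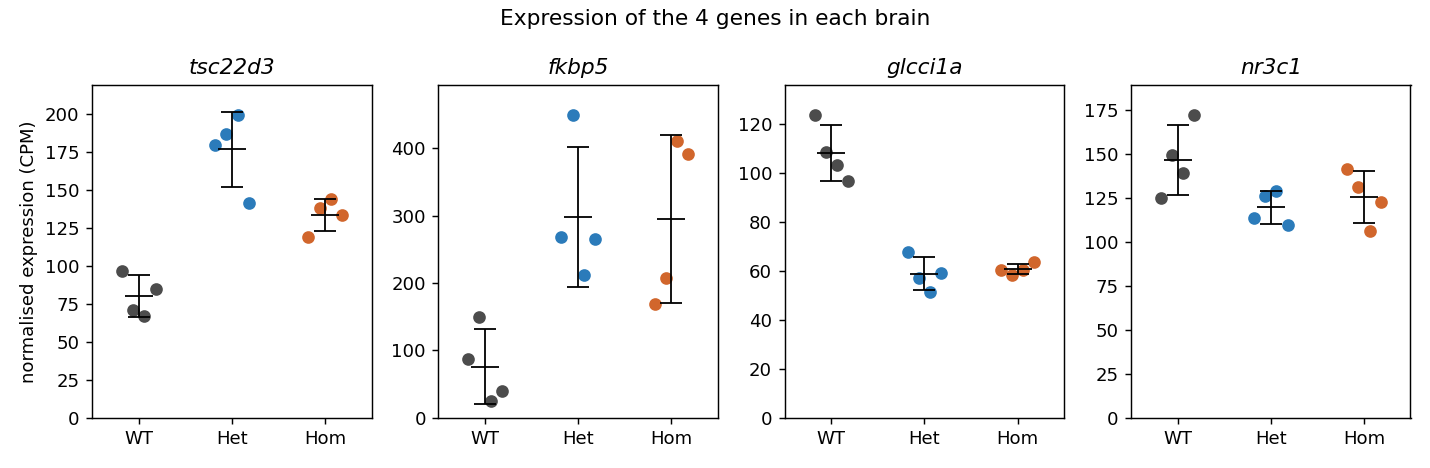
Normalised expression (CPM) of *tsc22d3*, *fkbp5*, *glcci1a* and *nr3c1* on the vertical axes in WT, Het and Hom brains, with 1 point per fish, the mean as a long horizontal dash and the SD (n = 4) as bars. The mutants lie above all WT fish in *tsc22d3* and *fkbp5* and below all WT fish in *glcci1a*, and they overlap WT in *nr3c1*.

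The glucocorticoid receptor gene itself, *nr3c1* (ENSDARG00000025032, GRCz11 chromosome 14, 23746710 to 23801389, minus strand), was the member that differed least. It had 125, 150, 139 and 172 CPM in WT fish 79, 86, 88 and 95. In Het fish 80, 81, 84 and 89 it had 114, 126, 129 and 110 CPM, and in Hom fish 78, 82, 83 and 85 it had 142, 132, 107 and 123 CPM. The genotypes overlapped, although 4 of the 8 mutants lay below the lowest WT fish and none lay above the highest. The logFC (log2 fold change) of the mean of Het and Hom against WT was -0.26 (SE 0.10), with -0.29 (SE 0.117) in Het and -0.22 (SE 0.117) in Hom.

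The receptor's co-chaperone gene *fkbp5* (ENSDARG00000028396, chromosome 6, 41096058 to 41117242, plus strand) stood at the other end. In WT it had 87.3, 150, 25.4 and 40.0 CPM in fish 79, 86, 88 and 95, from 292 to 1928 counts. Het fish 80, 81, 84 and 89 had 268, 449, 211 and 265 CPM, and Hom fish 78, 82, 83 and 85 had 169, 207, 410 and 392 CPM. Every mutant lay above every WT fish, although the gap between the highest WT fish and the lowest mutant was small against the spread within each genotype. The logFC was 1.97 (SE 0.44), a 3.92-fold difference, with 1.98 (SE 0.48) in Het and 1.96 (SE 0.48) in Hom.

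*tsc22d3* (ENSDARG00000075666, chromosome 14, 27998756 to 28001986, minus strand), the GILZ gene, had 96.9, 70.8, 66.6 and 84.8 CPM in WT fish 79, 86, 88 and 95. It had 179, 187, 199 and 141 CPM in Het fish 80, 81, 84 and 89, and 119, 138, 144 and 133 CPM in Hom fish 78, 82, 83 and 85. No mutant overlapped WT, and the Het fish were the highest apart from fish 89. The logFC was 0.95 (SE 0.12) for the mutants, 1.15 (SE 0.14) for Het and 0.74 (SE 0.13) for Hom.

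*glcci1a* (ENSDARG00000008503, chromosome 19, 25352289 to 25427255, minus strand) went the other way although its mammalian counterpart is named for induction by glucocorticoids. Its level was 124, 109, 103 and 96.8 CPM in WT fish 79, 86, 88 and 95. It was 67.9, 56.9, 51.5 and 59.1 CPM in Het fish 80, 81, 84 and 89, and 60.4, 58.4, 60.3 and 63.6 CPM in Hom fish 78, 82, 83 and 85. All mutants lay below all WT fish, and the Hom fish were within 1.09-fold of each other. The logFC was -0.85 (SE 0.086) for the mutants, -0.88 (SE 0.10) for Het and -0.83 (SE 0.10) for Hom.

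All 3 contrasts against WT use the same 4 WT fish, so they are not separate observations. Of the tested genes, 7.66% had all mutants above all WT fish and 8.76% had all mutants below. The criteria taken from the study's methods (Bonferroni-adjusted p under 0.01, or a logFC of more than 1 in size at an FDR under 0.01) called 2.53% of 16021 genes for the mutant allele, 1.53% as higher and 1.00% as lower. They called 3.17% in Het against WT (2.09% higher and 1.08% lower) and 1.11% in Hom against WT. Of the calls for the mutant allele 60.3% were higher, and 41.6% under a correction for gene length. *fkbp5* and *glcci1a* met these criteria, and nothing is read from that since the genes were chosen on this contrast. Among all tested genes the median logFC was 0.02. Ratios between members within a fish do not depend on how libraries are scaled. The log2 ratio of *tsc22d3* to *glcci1a* ran from -0.63 to -0.19 in WT fish, from 1.26 to 1.95 in Het fish and from 0.98 to 1.25 in Hom fish, so that the mutants lay far from WT while Het and Hom nearly touched. That of *fkbp5* to *nr3c1* ran from -2.45 to 0.00 in WT fish, from 0.71 to 1.83 in Het fish and from 0.25 to 1.94 in Hom fish, so the mutants overlapped each other but not WT.

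Levels of different genes were compared only per kb of exonic length (1684 bp for *tsc22d3*, 4388 bp for *fkbp5*, 2733 bp for *glcci1a* and 5363 bp for *nr3c1*). In WT the order of mean CPM per kb was *tsc22d3* (47.4 ± 8.19, SD, n = 4), *glcci1a* (39.5 ± 4.17), *nr3c1* (27.3 ± 3.70) and *fkbp5* (17.2 ± 12.7). The ranges of *tsc22d3* and *glcci1a* overlapped, as did those of *nr3c1* and *fkbp5*. In Het, *tsc22d3* (105 ± 14.8) was followed by *fkbp5* (68.0 ± 23.6), *nr3c1* (22.3 ± 1.78) and *glcci1a* (21.5 ± 2.49). The order in Hom was again *tsc22d3* (79.3 ± 6.31), *fkbp5* (67.2 ± 28.3), *nr3c1* (23.4 ± 2.78) and *glcci1a* (22.2 ± 0.79). In both mutant genotypes only *fkbp5* and *nr3c1* were neighbours whose ranges did not overlap. By group mean the co-chaperone transcript was thus the lowest of the 4 in WT and the second highest in each mutant genotype. Single fish departed from this order. *fkbp5* exceeded *nr3c1* in WT fish 86 (34.1 against 27.9). It exceeded *tsc22d3* in Hom fish 83 (93.5 against 85.5) and 85 (89.4 against 79.2). The change of rank between WT and mutants restates the difference on which the genes were chosen.

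The dose of the allele was examined by comparing Hom with Het, a contrast that the choice of genes did not use. No difference passed an FDR of 0.05 for any member in the quasi-likelihood test of edgeR, which called 0 of 16021 genes in this contrast, while 3.79% of genes had an unadjusted p under 0.05 and DESeq2 and the likelihood-ratio test of edgeR each called 9. The largest difference was in *tsc22d3*, with a Hom minus Het logFC of -0.40 (SE 0.13, 95% confidence interval -0.69 to -0.11, unadjusted p = 0.00967, FDR = 0.989). Het was the higher in 15 of 16 pairs of fish, and the two-sided exact permutation test gave p = 0.0571 (0.229 after Benjamini-Hochberg adjustment over the 4 genes), where 4 fish against 4 allow no less than 0.0286. For *glcci1a* the logFC was 0.04 (95% confidence interval -0.18 to 0.27) and for *nr3c1* it was 0.07 (-0.18 to 0.32), with an exact permutation p of 0.6 for each. For *fkbp5* it was -0.02, but the interval, from -1.003 to 0.97, was the widest of the 4 (exact permutation p = 0.857), so a sizeable difference in either direction was not detectable at this spread.

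The width of that interval came from the spread of *fkbp5* within genotypes. Its SD within genotype was 0.80 on the log2 scale, against 0.20 for *tsc22d3*, 0.16 for *nr3c1* and 0.13 for *glcci1a*. Of the 1000 genes of most similar mean level, 99.6% had a smaller SD than *fkbp5*, compared with 59.7%, 42.4% and 25.3% for the other 3 in the same order. The WT fish spread the most, with the highest WT fish 5.88-fold above the lowest, compared with 2.12-fold in Het and 2.43-fold in Hom. These spreads are far beyond counting error, since the lowest WT fish still had 292 counts of *fkbp5*.

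No pair of members was shown to vary together in these fish. Among the 8 mutant fish, the 6 pairs of members had Pearson's r between -0.56 and 0.23 in log2 CPM, and the smallest of the 6 exact permutation p-values was 0.152 (0.711 adjusted over the 6 pairs). The pair with the largest r in size was *fkbp5* and *nr3c1*, with r = -0.56 and Spearman's rho = -0.67 (exact permutation p = 0.0831, adjusted p = 0.499). Leaving out the 2 fish with the most extreme *fkbp5* levels gave r = -0.60. *tsc22d3* and *fkbp5*, both induced by the receptor in other settings, had r = 0.23 (exact permutation p = 0.567, adjusted p = 0.711) and rho = 0.43 (p = 0.299, adjusted p = 0.598), with r = 0.31 after the 2 fish most extreme in *tsc22d3* were left out. Over all 12 fish with each genotype's mean subtracted, r of *tsc22d3* and *fkbp5* was 0.25 (p = 0.536 by exact permutation within genotypes, adjusted p = 0.803). No relation of a member's deviations with the rRNA share, the total counts or the normalisation factor of the fish passed the test (12 relations, smallest adjusted p = 0.633 by exact permutation within genotypes). That test pools the genotypes, so slopes of opposite sign can cancel. For *fkbp5* and the rRNA share the pooled r was -0.50, and 0.12 without the 2 fish most extreme in their *fkbp5* deviation. In WT the share was lowest in fish 86 (17.9%) and highest in fish 88 (26.4%), the highest and the lowest in *fkbp5*. In Het, fish 81 (35.2%) was highest and fish 84 (31.3%) lowest in both. In Hom, fish 83 (35.5%) was highest in both, but the other Hom fish did not follow the same order. Fish 78, the lowest in *fkbp5*, had a share of 32.9%, and fish 85, with 392 CPM of *fkbp5*, had 32.1%. The lowest share was that of fish 82 (31.4%). Relations within a single genotype were not tested.

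The known target genes of the receptor gave a wider view. A list of 30 genes taken as induced by glucocorticoids in vertebrates included *tsc22d3* and *fkbp5*, and 26 of the other 28 passed the filter. Genes were matched by name, so a symbol could bring in further copies, such as both PDK2 genes and SOCS3 beside *socs3a*. Of these 26, 11 were higher and 4 lower in the mutants at an FDR under 0.05, shares of 42.3% and 15.4%, where 16.8% of all tested genes were higher and 17.4% lower at that threshold. The median logFC of the 26 was 0.39, beside 0.02 for all genes. By the stricter criteria of the study 2 were higher and 1 lower. In Het 10 were higher and 3 lower (15.3% and 14.7% of all genes), and in Hom 9 and 3 (9.34% and 11.0%). None of the 26 differed between Hom and Het at an FDR under 0.05.

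Among the targets that rose, *mt2*, a metallothionein gene, had the largest logFC, 1.86 (SE 0.36, FDR 0.00241). WT brains held 22.98 ± 15.9 CPM (SD, n = 4), compared with 105 ± 16.4 in Het and 65.9 ± 18.7 in Hom, and all mutants lay above all WT fish. *socs3a*, a suppressor of cytokine signalling, rose from 4.11 ± 1.03 CPM in WT to 13.5 ± 4.63 in Het and 8.57 ± 2.44 in Hom (logFC 1.39, SE 0.26, FDR 0.00201). *klf9*, a zinc finger factor induced directly by the receptor in zebrafish and mammals, was 24.1 ± 12.4 CPM in WT, 68.5 ± 38.3 in Het and 57.7 ± 29.5 in Hom (logFC 1.38, SE 0.39, FDR 0.0169). WT fish 86, at 42.7 CPM, lay above Hom fish 78 and 82 for *klf9*, so the genotypes overlapped. Without WT fish 79 the FDR of *klf9* was 0.056 (logFC 1.28).

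The other targets that rose had smaller changes. *dusp1*, a phosphatase that switches off MAP kinases, rose by a logFC of 0.87 (SE 0.15, FDR 0.00147), and the inhibitor of NF-kappaB gene *nfkbiab* by 0.69 (SE 0.16, FDR 0.00642). The pyruvate dehydrogenase kinase genes annotated as PDK2 rose by 0.87 (ENSDARG00000020876, SE 0.12, FDR 0.00059) and 0.81 (ENSDARG00000059054, SE 0.24, FDR 0.0189). *cebpb*, *zbtb16b*, SOCS3 and the insulin receptor substrate gene *irs2b* rose by 0.65, 0.61, 0.51 and 0.44 (FDR 0.012, 0.0206, 0.0342 and 0.00189). The call was lost for the PDK2 copy ENSDARG00000059054 without WT fish 95 (FDR 0.0521), for *zbtb16b* without WT fish 79 (FDR 0.0758) or 86 (FDR 0.0625), and for SOCS3 without WT fish 79 (FDR 0.0947) or 86 (FDR 0.117), Het fish 80 (FDR 0.061), or Hom fish 78 (FDR 0.0529) or 85 (FDR 0.0592). The SOCS3 call was also lost with no filter on low counts (FDR 0.0535) and under the length correction (FDR 0.058).

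The 4 targets that fell were the clock genes *per1a* (logFC -0.97, SE 0.096, FDR 0.000235) and *per1b* (-0.71, SE 0.086, FDR 0.000505), *nfkbiaa* (-0.77, SE 0.18, FDR 0.00702) and *foxo3b* (-0.24, SE 0.078, FDR 0.0325). The call on *foxo3b* was lost without WT fish 79 (FDR 0.0787), 86 (FDR 0.104) or 95 (FDR 0.0613), Het fish 89 (FDR 0.0639), or Hom fish 78 (FDR 0.0529) or 82 (FDR 0.0614), and also with no filter on low counts (FDR 0.0737) and under the length correction (FDR 0.0525). *per1a* had 225 ± 22.2 CPM in WT, 125 ± 13.5 in Het and 105 ± 12.98 in Hom, with all mutants below all WT fish. The *nfkbia* copies of the zebrafish thus moved in opposite directions. *sgk1*, a kinase gene much used as a glucocorticoid readout, had 100 ± 3.99 CPM in WT, 108 ± 11.9 in Het and 94.0 ± 9.64 in Hom and did not pass the test (logFC 0.00, SE 0.087, FDR 0.985). *hsd11b2*, which encodes an enzyme that inactivates cortisol, had a logFC of 0.62 (SE 0.25, FDR 0.0675), *cebpd* of 0.66 (SE 0.35, FDR 0.154) and *ddit4* of 0.28 (SE 0.20, FDR 0.295).

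**Figure D2:**
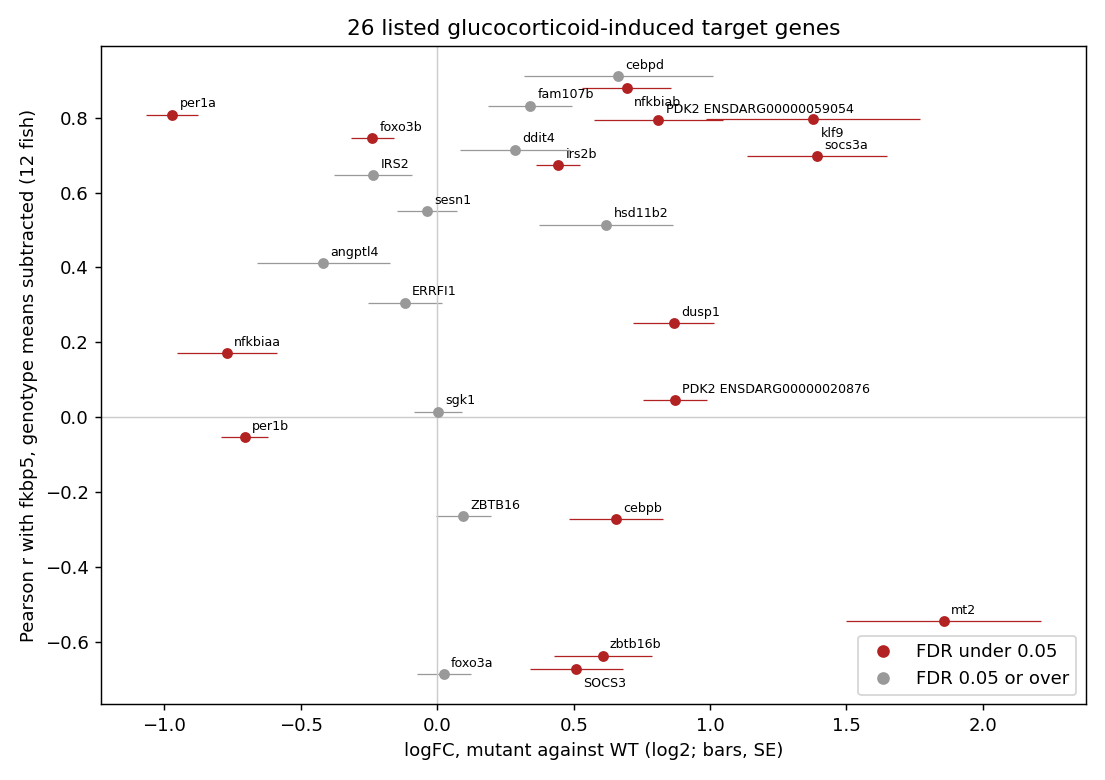
The 26 listed target genes that passed the filter, with the logFC of mutant against WT (log2, bars are SE) on the horizontal axis and Pearson's r with *fkbp5* over 12 fish after subtraction of genotype means on the vertical axis. Red points passed an FDR of 0.05 and grey points did not; *per1a* lies at the upper left, with a logFC of -0.97 and r = 0.81, and *mt2* at the lower right, with 1.86 and -0.54.

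Whether the fish to fish variation of *fkbp5* was shared with these targets is a separate question from the differences between genotypes, because the genotype means are subtracted first. Of the 26 targets, 8 had r of 0.7 or more with *fkbp5* over the 12 fish, which is 30.8%, where 3.29% of the other 16020 tested genes did. This limit on r was chosen with the values in view. The 8 were *cebpd* (0.91), *nfkbiab* (0.88), *fam107b* (0.83), *per1a* (0.81), *klf9* (0.80), the PDK2 copy ENSDARG00000059054 (0.79), *foxo3b* (0.74) and *ddit4* (0.71). The median r of the 26 was 0.46, beside 0.03 over all genes. By exact permutation within genotypes 12 of the 26 pairs with *fkbp5* had an unadjusted p under 0.05, but none of the 104 pairs of a member with a target passed after Benjamini-Hochberg adjustment (smallest adjusted p = 0.0853, for *cebpd* among others, with an unadjusted p of 0.00137 and rho = 0.87, p = 0.00297, adjusted p = 0.0623). The same counts at r of 0.7 or more were 0 of 26 for *tsc22d3*, 0 for *glcci1a* and 0 for *nr3c1*, where 0.986%, 1.54% and 0.612% of all genes reached it. In the 8 mutant fish without centring, however, 9 targets reached that limit with *fkbp5*. They included IRS2 (0.92), *sesn1* (0.82) and *irs2b* (0.82), but not *fam107b* (0.64) or *ddit4* (0.46). The share of all tested genes at the limit was not computed for this set, and the shares above do not apply to it. *tsc22d3* reached the limit there with each target named next. These were *sgk1* (r = 0.90, exact permutation p = 0.00149, adjusted p = 0.0774), *foxo3a* (0.85), *mt2* (0.85), *nfkbiaa* (0.82) and *nfkbiab* (0.81). The rest were *ddit4* (0.81), *socs3a* (0.78), *cebpb* (0.77) and *cebpd* (0.73). It also had r of -0.78 with *angptl4* and -0.73 with the PDK2 copy ENSDARG00000020876. Such values include any difference between Het and Hom. With the Het and Hom means subtracted, r of *tsc22d3* in these fish was 0.89 for *sgk1*, 0.80 for *ddit4*, 0.79 for *nfkbiaa* and 0.75 for *nfkbiab*. It fell below 0.7 for *socs3a* (0.62), *foxo3a* (0.61), *mt2* (0.61), *cebpd* (0.60) and *cebpb* (0.58). For *angptl4* and that PDK2 copy it was -0.48 and -0.49. Whether *fkbp5* differed from the other members in its r with the targets was not tested.

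**Figure D3:**
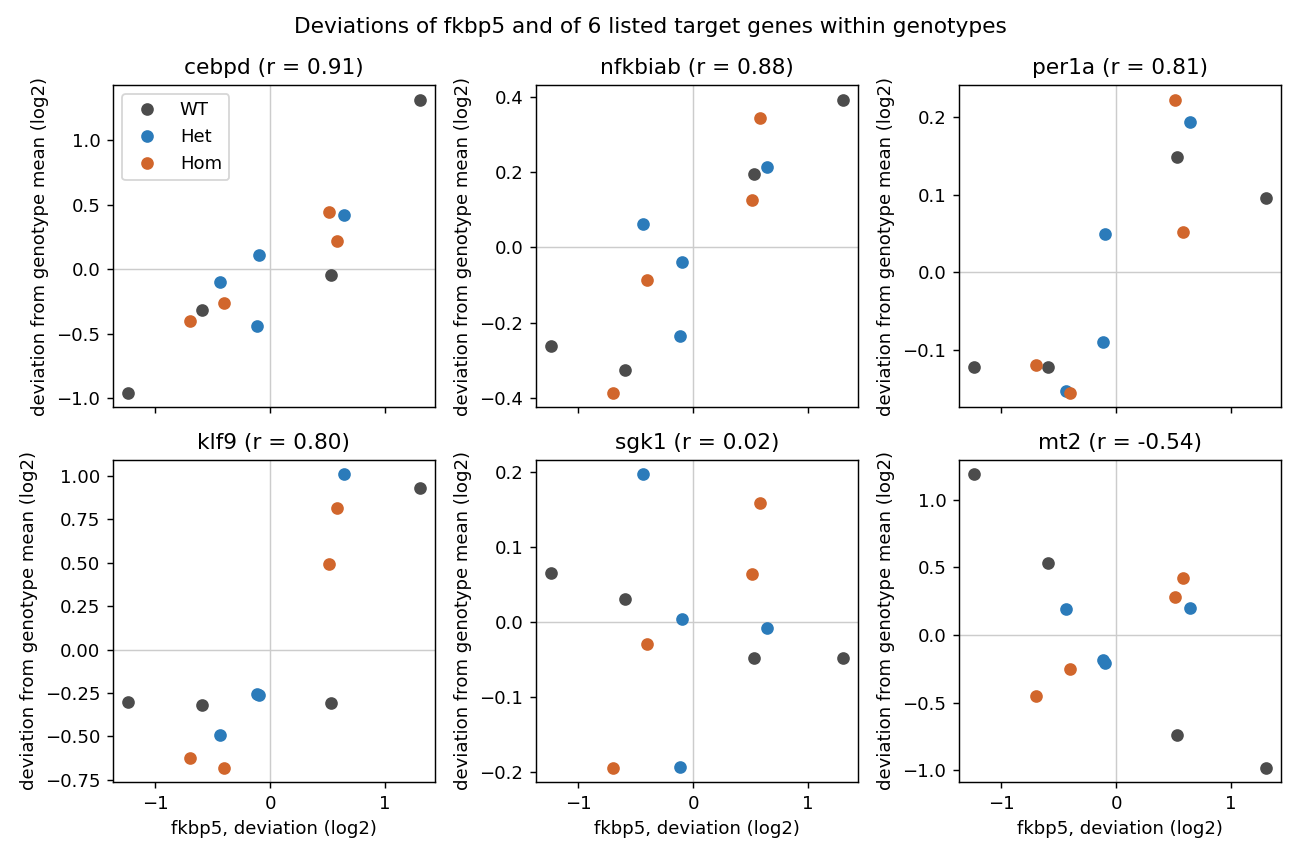
Deviation of each fish from its genotype mean in log2 CPM, for *fkbp5* on the horizontal axes and for 6 listed target genes on the vertical axes, with 1 point per fish coloured by genotype. *cebpd*, *nfkbiab*, *per1a* and *klf9* rise along *fkbp5* (r = 0.91, 0.88, 0.81 and 0.80), *sgk1* does not (r = 0.02), and *mt2* runs downward among the WT fish (r = -0.54 over all 12).

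Because the 8 targets were picked for their r with *fkbp5* in these fish, the values that follow describe the pattern and do not test it. *fkbp5* was highest in fish 86 among WT, in fish 81 among Het and in fish 83 among Hom. Of the 8 targets, 7 were also highest in fish 86, 6 in fish 81 and 5 in fish 83. *klf9* had 42.7 CPM in fish 86 and 17.8 to 18.03 in the other WT fish, 126 in fish 81 and 44.3 to 52.2 in the other Het fish, and 91.7 in fish 83, where Hom fish 85 had 73.1 and the other Hom fish 32.3 and 33.6. Without the 2 fish whose *fkbp5* deviation lay farthest from the median, r of the 8 targets was between 0.50 and 0.90, lowest for *ddit4*. Within the 8 mutant fish alone, without centring, r lay between 0.46 and 0.96. The highest was that of *klf9* (exact permutation p = 0.000198, and 0.0206 after adjustment over the 104 pairs), the only pair of a member with a target to pass in that set. These fish are among those in which *klf9* was picked, so its value is not a separate observation.

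For *per1a* and *foxo3b*, the difference between mutants and WT and the variation within genotypes ran in opposite directions in these fish. Both were lower in the mutants, where *fkbp5* was higher, yet after subtraction of the genotype means fish with more *fkbp5* tended to have more of both. Neither r passed adjustment (adjusted p = 0.0946 for *per1a* and 0.0853 for *foxo3b*, exact permutation within genotypes). *per1a* had 128.6, 142.2, 111.8 and 116.8 CPM in Het fish 80, 81, 84 and 89, in which *fkbp5* was highest in fish 81 and lowest in fish 84. *mt2* was the reverse case in WT, where fish 88, the lowest in *fkbp5*, had the most *mt2* (43.6 CPM) and fish 86, the highest in *fkbp5*, had the least (9.54 CPM). In the 8 mutant fish the r of *mt2* with *fkbp5* was 0.55 without centring (exact permutation p = 0.168, adjusted p = 0.498). It was 0.79 with the Het and Hom means subtracted. Over the 12 fish *foxo3a*, SOCS3 and *zbtb16b* had r of -0.69, -0.67 and -0.64 with *fkbp5* (unadjusted exact permutation p of 0.166, 0.0273 and 0.190, adjusted p of 0.648, 0.237 and 0.648). In the 8 mutant fish without centring, r was 0.34 for *foxo3a* and 0.48 for *zbtb16b*, so their sign was reversed there. For SOCS3 it was -0.48.

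Among the other genes of the hormone axis, 8 of 12 passed the filter, of which 2 were higher (25%) and 1 lower (12.5%) at an FDR under 0.05, shares near those of all tested genes (16.8% and 17.4%). The mineralocorticoid receptor gene *nr3c2*, whose product binds cortisol in fish, fell from 159 ± 25.1 CPM in WT to 94.4 ± 16.01 in Het and 99.2 ± 5.86 in Hom (logFC -0.71, SE 0.11, FDR 0.00119), with no overlap between mutants and WT. *crhbp*, which encodes the binding protein of corticotropin-releasing hormone, rose from 14.6 ± 2.22 to 27.3 ± 8.64 and 30.8 ± 11.6 CPM (logFC 0.99, SE 0.22, FDR 0.00546). *avp*, for the pituitary-stimulating peptide vasotocin, had 0.17 to 2.95 CPM in WT and 1.58 to 13.4 in the mutants (logFC 2.07, SE 0.65, FDR 0.0256), and its lowest WT value lay under the floor of 3 counts. It no longer passed without WT fish 86 (FDR 0.0787), 88 (FDR 0.06) or 95 (FDR 0.0626) or under the length correction (FDR 0.0508), and its logFC was 3.12 without WT fish 79. The corticotropin-releasing hormone gene CRH (logFC 0.31, SE 0.16, FDR 0.156) and its receptor gene *crhr1* (0.14, SE 0.14, FDR 0.438) did not pass.

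**Figure D4:**
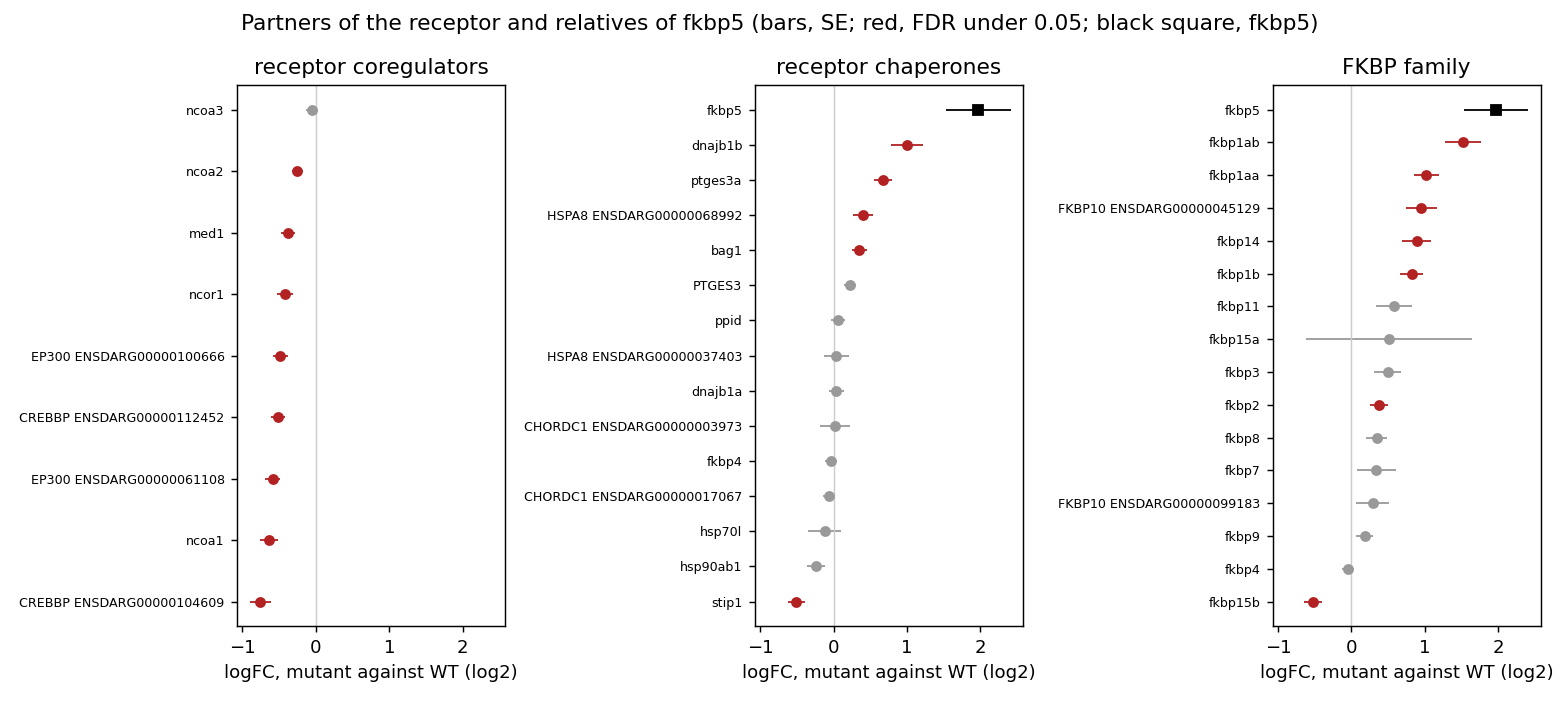
logFC of mutant against WT (log2, horizontal axes, bars are SE) for the listed receptor coregulators, receptor chaperones and FKBP family genes that passed the filter, with 1 row per gene; red passed an FDR of 0.05, grey did not and the black square is *fkbp5*. All 9 coregulators lie below 0, from -0.76 to -0.05, while the chaperones and FKBP genes lie on both sides.

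The listed genes for proteins that work with the receptor were of 2 kinds, coregulators and chaperones, and the 2 lists were not tested against each other. Of the 9 listed coregulators, which bind the receptor in the nucleus, 8 were lower and none higher at an FDR under 0.05, beside 17.4% and 16.8% of all tested genes, and their median logFC was -0.48. They were the coactivators *ncoa1* (logFC -0.64, SE 0.12, FDR 0.00205) and *ncoa2* (-0.26, SE 0.075, FDR 0.0188), the corepressor *ncor1* (-0.42, FDR 0.0104), *med1* (-0.38, FDR 0.00647) and the histone acetyltransferase genes annotated as CREBBP and EP300, with 2 copies each between -0.76 and -0.48. *ncoa3* had a logFC of -0.05 (FDR 0.650). None of the 8 met the stricter criteria of the study, and *ncoa2* no longer passed without WT fish 79 (FDR 0.0949) or under the length correction (logFC -0.18, FDR 0.0787).

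Of the listed chaperones and co-chaperones, 14 besides *fkbp5* passed the filter, with 4 higher (28.6%) and 1 lower (7.14%), beside 16.8% and 17.4% of all tested genes, and a median logFC of 0.04. The p23 gene *ptges3a* rose by 0.67 (SE 0.12, FDR 0.00182), *dnajb1b* by 1.00 (SE 0.21, FDR 0.00408), the HSPA8 copy ENSDARG00000068992 by 0.40 (SE 0.13, FDR 0.0361) and *bag1* by 0.35 (SE 0.10, FDR 0.0203), and *stip1*, which hands clients from Hsp70 to Hsp90, fell by 0.51 on the log2 scale (SE 0.11, FDR 0.00531). The HSPA8 copy was no longer called without WT fish 79 (FDR 0.114), 86 (FDR 0.0698) or 95 (FDR 0.105), or Hom fish 82 (FDR 0.0527), 83 (FDR 0.063) or 85 (FDR 0.058), nor *bag1* without WT fish 79 (FDR 0.0737) or 86 (FDR 0.0537) or under the length correction (FDR 0.0567). *fkbp4*, the close relative of *fkbp5* that favours receptor transport in mammals, had 104 ± 7.19, 97.3 ± 9.51 and 106 ± 7.30 CPM in WT, Het and Hom (logFC -0.04, SE 0.081, FDR 0.737). *hsp90ab1* did not pass either (logFC -0.25, SE 0.12, FDR 0.133).

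In the family of *fkbp5*, the FK506-binding prolyl isomerases, 6 of the 15 other genes that passed the filter were higher and 1 was lower, beside 16.8% and 17.4% of all tested genes, with a median logFC of 0.49 beside 0.02 for all genes. *fkbp1ab* (logFC 1.53, SE 0.24, FDR 0.00119) and *fkbp1aa* (1.02, SE 0.17, FDR 0.00136), for the small cytosolic FKBP12 proteins, met the stricter criteria. *fkbp1b*, *fkbp2*, *fkbp14* and the FKBP10 copy ENSDARG00000045129 also rose (0.82, 0.38, 0.89 and 0.95), and *fkbp15b* fell by 0.52 on the log2 scale (FDR 0.00751). *fkbp2* did not pass without WT fish 79 (FDR 0.0904) or 86 (FDR 0.0806), and had a logFC of 0.20 under the length correction (FDR 0.153). In *fkbp1b* the Hom fish (26.7 ± 4.07 CPM) exceeded the Het fish (17.5 ± 4.23) at an unadjusted p of 0.00346 in edgeR's test, with an FDR of 0.989. The relatives of *tsc22d3*, *tsc22d1* (logFC 0.22, FDR 0.253) and *tsc22d2* (0.06, FDR 0.608), did not pass. Among relatives of *glcci1a*, FAM117B (logFC -0.56, SE 0.097, FDR 0.00162) and *fam117bb* (-0.62, SE 0.16, FDR 0.0105) fell as *glcci1a* was lower, and FAM117A (0.11, FDR 0.635) did not pass. Without WT fish 86 the FDR of *fam117bb* was 0.0503.

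Markers of other tissue were examined because a whole brain can carry pituitary and blood. The sum over 10 pituitary genes lay between 3.57 and 23.8 CPM in WT, between 3.16 and 24.8 in Het, and between 4.77 and 11.4 in Hom, with 3 of the 10 passing the filter and none at 0 in every fish. That over 5 red blood cell genes lay between 53.0 and 73.9 CPM in WT, between 46.9 and 141 in Het, and between 54.1 and 93.6 in Hom, and of these *alas2* was higher in the mutants (logFC 0.75, SE 0.22, FDR 0.019, and 0.0735 without WT fish 86). That over 10 brain genes lay between 8988 and 14334 CPM in WT, between 11945 and 14085 in Het, and between 11493 and 16490 in Hom, with 1 of them higher and 2 lower in the mutants. The GAD1 copy ENSDARG00000027419 (logFC 0.39, FDR 0.0497) kept its call in 8 of 18 alternatives and lost it without WT fish 79 or 86, Het fish 81, 84 or 89, or Hom fish 78, 82 or 83 (FDR up to 0.17). The SNAP25 copy ENSDARG00000058117 (logFC -0.27, FDR 0.0477) kept its call in 4 of 18 and lost it without any single fish other than Het fish 84 (FDR up to 0.166). The SLC17A7 copy ENSDARG00000016480, of excitatory neurons, fell from 197 ± 46.5 CPM in WT to 105 ± 33.9 in Het and 84.3 ± 25.97 in Hom (logFC -1.06, SE 0.21, FDR 0.00302). The summed levels overlapped between genotypes, and the part of other cells in the differences above was not tested.

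The 3 annotated genes whose deviations from the genotype mean were most like each member over the 12 fish are given as a description. For *fkbp5* they were *si:dkey-93n13.2* (r = 0.97), *pbxip1b* (0.94) and *ptpn23b* (0.94). All 3 were lower in the mutants, with logFC of -0.50, -0.62 and -0.80 (FDR 0.0155, 0.0155 and 0.00139). Without subtraction of the genotype means their r with *fkbp5* was therefore negative, from -0.46 to -0.21. For *glcci1a* they were *rims1a* (0.92), which encodes a synaptic active zone protein, *rubcn* (0.92) and *hmmr* (0.91). *rims1a* fell with the allele like *glcci1a* (386, 213 and 228 CPM in WT, Het and Hom, logFC -0.81, FDR 0.000652), and its r with *glcci1a* before centring was 0.98. For *tsc22d3* they were TMEM18 (0.96), GGCT (0.94) and CCBE1 (0.93), and for *nr3c1* they were *simc1* (0.95), the carboxypeptidase M gene ENSDARG00000011769 (0.91) and SEPTIN9 (0.91). GGCT, for gamma-glutamylcyclotransferase, had 567, 1100 and 779 CPM in WT, Het and Hom, the same order of genotypes as *tsc22d3*.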

How the data were processed

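Raw counts per gene were deposited for all 12 fish. Per the submitters' processing notes and the file header, the authors trimmed with cutadapt 1.14, aligned to GRCz11 with STAR 2.7.0d and counted with featureCounts of Subread 1.5.2. A pair counted only when wholly exonic, on the reverse strand and of mapping quality 10 or more, so near-identical copies can lose reads. The other column used is the exonic length that the authors' counter wrote. The correction for GC content and length in the study's methods is not in the deposited counts. The extraction label speaks of pooled larvae, whereas the other labels and the study give adult brain.

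Genes above 1.5 CPM, relative to all counts, in at least 4 fish were kept and 2 mitochondrial rRNA genes left out, giving 16021. Counts were tested after TMM with edgeR 4.0.16 under R 4.3.3, by its quasi-likelihood method, in a model of the 3 genotypes with 9 residual degrees of freedom, with Benjamini-Hochberg FDR over all tested genes. FDR under 0.05 for the listed genes was added to the study's criteria after the data had been seen, as were the correlations of members with targets. Correlations used log2 CPM with a prior count of 2 and two-sided exact permutation, over 40320 pairings of 8 fish or 13824 rearrangements within genotypes. The code was checked on simulated data.

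The members and lists were chosen with earlier results of these data known. Symbols came from the rule, from the study's gene list (1811 identifiers) or from a reference table (28988 of 32057 identifiers). Names in capitals are that table's, and where several genes carry one name the identifier is given. The genes named are the members, *psen2*, listed genes that pass the test, with others for contrast, and the 3 genes most like each member. A gene first listed is not reported here. Other genes singled out for a value were chosen after the values had been seen. The analysis was repeated with DESeq2 1.42.0, the likelihood-ratio test, upper-quartile scaling, no filter, at least 10 counts in every fish, a length correction and without each fish. Each fish is a separate animal. Floors of 3 counts cover counting error only, as the libraries carry no molecular identifiers.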

Additional observations from a re-analysis of the deposited data

Results flagged for a closer look

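In 14 of 147 groups of 4 fish, formed from the 3 genotypes of 49 named genes, the highest or lowest fish stood so far from the others that the gap made up most of the group's range. About 1 in 20 such groups would do so by chance, and none of the 12 groups of the 4 members did. The share of the range taken by the gap was largest for *klf9* in WT (0.990, fish 86, 42.7 CPM against at most 18.03) and was 0.903 for *klf9* in Het (fish 81, 126 against at most 52.2), the fish that were also highest in *fkbp5*. In WT it was 0.960 for the SLC17A7 copy ENSDARG00000016480, 0.875 for *ncoa2*, 0.860 for *nr3c2* and 0.840 for *per1b*, each from a single high fish. In Het a single high fish gave 0.938 for *fkbp1b*, 0.915 for *crhbp*, 0.896 for *cebpb*, 0.836 for *dnajb1b* and 0.835 for *bag1*, and a single low fish gave 0.840 for *fkbp1ab*. In Hom it was 0.860 for *zbtb16b*, from a high fish, and 0.852 for *fkbp1aa*, from a low one.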

How the results depend on the processing

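The logFC of each member against WT kept its direction under 6 other settings and without each of the 12 fish. For the mutant allele it ran from 1.68 to 2.55 for *fkbp5*, 0.87 to 1.06 for *tsc22d3*, -0.90 to -0.78 for *glcci1a* and -0.32 to -0.17 for *nr3c1*. Counts over all genes moved far more. For the mutant allele 406 genes met the criteria, 1132 with DESeq2 and 966 with the likelihood-ratio test. The corresponding counts were 508, 981 and 870 for Het against WT, 178, 530 and 454 for Hom against WT, and 0, 9 and 9 for Hom against Het. Leaving out a fish gave 161 (without WT fish 86) to 680 (without WT fish 88) for the mutant allele, 137 (without WT fish 79) to 815 (without WT fish 88) for Het, and 11 (without Hom fish 85) to 424 (without WT fish 88) for Hom. The cause was not tested. Among the listed targets, 10 to 12 were higher and 3 to 4 lower under the other settings, and 8 to 11 and 3 to 4 without each fish. The coregulators that were lower numbered 7 to 8 throughout. The chaperones that were higher numbered 2 to 5 without each fish. In Hom against Het, no member passed an FDR of 0.05 under any setting run, nor did any pair of members after adjustment. The r of *fkbp5* with *ddit4* was 0.93 without Het fish 84 (adjusted p = 0.0301), and for the other 7 named targets r stayed between 0.65 and 0.95 with no adjusted p under 0.05. No paired analysis was possible because the labels give every fish its own number and no genotypes share one.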
